A study of Mus musculus with 12 samples.

Results

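The genes described here encode enzymes that make cholesterol and fatty acids, with the proteins that switch these enzymes on and off. They are 30 genes taken by name, and all 30 were found among the 55536 genes of the deposited tables. By role, 7 belong to the mevalonate pathway, 11 to the steps that make squalene and turn it into cholesterol, 6 are regulators or sterol carriers, and 6 make and modify fatty acids. RNA had been sequenced from the thyroids of 12 mice, with 1 library per mouse. The 5 affected mice came from the Taconic C57BL/6N colony (B6NTac) and had thyroid dysplasia, which the study traced in that colony to a LINE-1 element within an intron of the thyroglobulin gene *Tg*. The 7 unaffected mice had a wild type thyroid phenotype. Of these, 6 were C57BL/6N mice from Charles River (B6NCrl), and 1 (replicate 14) was a knockout animal from Taconic whose altered gene is not given in the sources used here. The labels do not give LINE-1 genotype, sex, age or batch for any of these mice, and colony and phenotype cannot be told apart beyond that 1 animal.

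Cholesterol is built from acetyl-CoA by way of mevalonate, isoprenoid diphosphates, squalene and lanosterol, while fatty acids are built from acetyl-CoA and malonyl-CoA. Genes of both routes are driven by the SREBP transcription factors, which are held in the membrane of the endoplasmic reticulum by SCAP and the INSIG proteins when sterols are plentiful, and are carried to the Golgi and cut free when sterols run short. The thyroid follicular cell fills its endoplasmic reticulum with thyroglobulin, and the gland lies next to adipose tissue, whose cells make fatty acids at a high rate.

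Total counts ranged from 20170500 to 23319948 in affected mice and from 11434901 (unaffected mouse 14) to 22401136 in unaffected mice. Levels below are counts scaled to the library total (CPM) with TMM factors applied, and levels are compared between genes only as FPKM, which also divides by transcript length. Thyroid follicular markers (13 genes) summed to 101500, 184700, 257400, 200500 and 120100 CPM in affected mice 1, 3, 4, 5 and 6 and to at least 211500 CPM in every unaffected mouse, with *Tg* most abundant in all 12 libraries, so affected mice 1 and 6 held the least. Of these markers 6 had a positive fold change (median log2 fold change -0.23), and by edgeR 1 was higher and 1 lower (15.4% of the 13), with 1 higher and 4 lower at an unadjusted p under 0.05 and 1 higher and 3 lower by DESeq2. Of all genes tested, 13.7% passed by edgeR (7.63% higher, 6.1% lower) and 18.3% by DESeq2 (10.4% higher, 7.89% lower). At that unadjusted p, 15.4% of all genes were higher and 13.6% lower. *Pax8*, a transcription factor of follicular cells, fell by 0.81 on the log2 scale, and *Slc26a4*, an iodide transporter, rose by 3.69 from 0.294 CPM or less in unaffected mice (0.53 by limma on log2(FPKM + 1), where adding 1 shrinks fold changes at such levels).

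Several libraries stood apart in markers of other tissues. The summed level of 14 white adipose markers was 5993, 1322, 1071, 2377 and 3684 CPM in affected mice 1, 3, 4, 5 and 6, and 1907, 1714, 2409, 1787, 1426, 1355 and 1471 CPM in unaffected mice 14, 21, 22, 23, 24, 25 and 26. Their most abundant gene was *Fabp4* or *Lpl* in each mouse, and no marker was at 0 in any mouse. Affected mouse 1 was the highest of the 12 mice, followed by affected mouse 6, then unaffected mouse 22 and affected mouse 5, while affected mice 4 and 3 were the lowest. The 10 brown adipose markers summed to 1576, 203, 122, 667 and 678 CPM in affected mice 1, 3, 4, 5 and 6 and 173, 239, 460.2, 282, 186, 219 and 218 CPM in the unaffected mice in the same order, led by *Ucp1*, *Ppargc1a* or *Cpt1b* and again with none at 0. Skeletal muscle markers (10 genes, *Myh4* most abundant in most mice) spanned 8.87 to 12910 CPM in unaffected mice and 17.8 to 29470 CPM in affected mice. T cell markers (7 genes) summed to 287 CPM in unaffected mouse 14 and 288 CPM in unaffected mouse 21, against at most 49.2 CPM in the other 10 mice. B cell markers (5 genes) summed to 90.6 CPM in affected mouse 1 and to at most 8.63 CPM in the other 11 mice. Affected mouse 3 held 1862 CPM of 7 airway and cartilage markers, against at most 109 CPM elsewhere. Affected mouse 4 held 46.4 CPM of 4 parathyroid markers, against at least 3625 CPM elsewhere.

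All 30 genes passed the filter on low counts and were among the 19661 tested between the groups (edgeR quasi-likelihood, adjusted over all of them by Benjamini-Hochberg, threshold 0.05). In affected mice 4 of them were higher and 0 were lower. Over all genes tested, 13.7% changed, with 7.63% higher and 6.1% lower, so that the 13.3% of the 30 genes past the threshold lay near the background and is not a result about them as a group. At an unadjusted p under 0.05, 9 of the 30 were higher and 0 lower by edgeR (30%, against 29.0% of all genes, 15.4% higher and 13.6% lower). After adjustment DESeq2 placed 5 higher and 0 lower, where 18.3% of all genes passed, and limma on log2(FPKM + 1) placed 2 higher and 0 lower, where 10.1% passed. The groups did not overlap for 1 of the 30 (3.33%), *Mvd*, against 7.14% of all genes tested. Fold changes were positive for 22 of the 30, with a median log2 fold change of 0.20 against 0.01 over all genes tested. They ran from -0.34 (*Dhcr7*) to 1.25 (*Fasn*).

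The count of 4 depends on single mice. Without affected mouse 4 it was 8 (with *Acat2*, *Hmgcs1*, *Fdps* and *Fasn* added), in a fit where the share of all genes past the threshold also rose, to 17.0%. Without unaffected mouse 23 it was 8 as well (with *Fdps*, *Cyp51*, *Msmo1* and *Insig1* added), with 13.5% of all genes past the threshold. Leaving out affected mouse 1 or 5, or unaffected mouse 14, 22, 24 or 26, gave 2 (*Mvd* and *Ebp*), with 8.89% to 12.3% of all genes, and none of the 30 was lower in any of these fits. Over all genes, 2699 passed, and 1774 did without affected mouse 5. Of the 2699, 55.6% were higher. With upper-quartile factors 2659 genes passed and 43.2% of those were higher, and with library totals that leave out *Tg* 2313 passed and 26.1% of those were higher. On the scale without *Tg* the median over all genes was -0.13, and that of the 30 genes was 0.07, or 0.21 above it, much as on the TMM scale (0.20 above). On this scale 1 of the 30 was higher (*Mvd*), and 3.07% of all genes were higher and 8.7% lower.

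**Figure D1:**
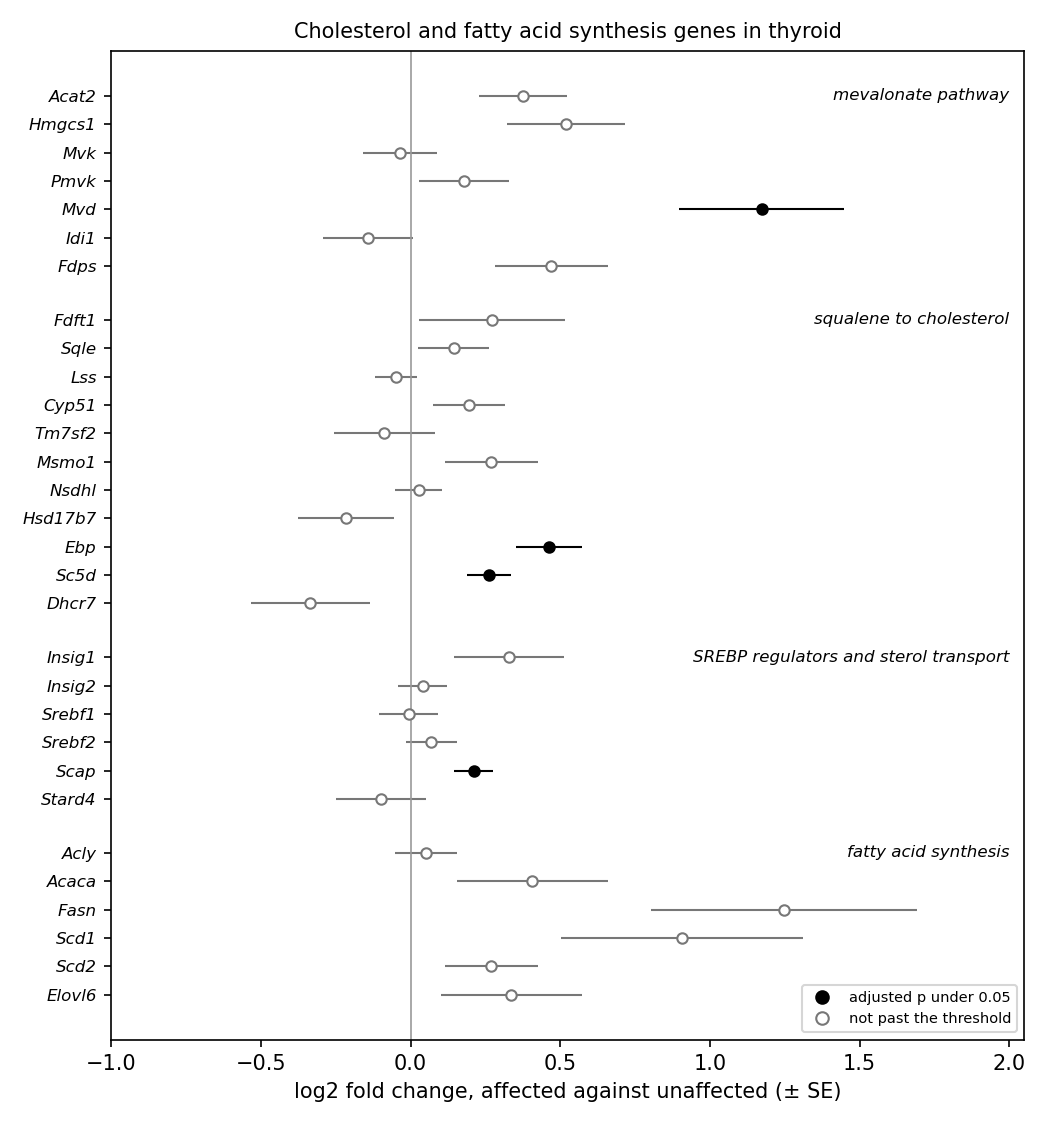
Log2 fold change of each of the 30 genes in affected (n = 5) against unaffected (n = 7) thyroids, by role, with bars of 1 standard error. Filled points mark the 4 genes past the adjusted threshold, and *Fasn* and *Scd1* have the widest bars.

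In unaffected thyroids the 5 most abundant of the 30 genes per length were all genes of fatty acid synthesis. *Scd1*, which places a double bond in saturated fatty acids, led with 449 ± 127 FPKM (SD, n = 7), followed by *Fasn* (fatty acid synthase) with 78.8 ± 25.8 FPKM (SD, n = 7) and *Scd2*, another desaturase of the same kind, with 70.7 ± 8.13 FPKM (SD, n = 7). *Acaca*, the carboxylase that makes malonyl-CoA, had 42.5 ± 5.91 FPKM (SD, n = 7). The levels of *Fasn* and *Scd2* overlapped between unaffected mice, as did those of the next genes, *Acly* and *Srebf1*. The sterol enzymes lay lower, from 18.0 ± 5.80 FPKM (SD, n = 7) for squalene synthase (*Fdft1*) down to 1.54 ± 0.384 FPKM (SD, n = 7) for *Mvd*, whose mean was the lowest of the 30.

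Of the 7 genes of the mevalonate pathway, 1 was higher and 0 lower (median log2 fold change 0.37), with 4 higher and 0 lower at an unadjusted p under 0.05 (15.4% of all genes higher, 29.0% either way) and 1 higher and 0 lower by DESeq2. The gene past the threshold was *Mvd* (ENSMUSG00000006517, chr8:122433601-122443422, minus strand, GRCm38), which encodes the decarboxylase that turns mevalonate diphosphate into isopentenyl diphosphate. *Mvd* had 4.03, 9.38, 4.44, 9.03 and 3.81 CPM in affected mice 1, 3, 4, 5 and 6, and between 1.50 and 3.52 CPM (median 2.82) in unaffected mice. Affected mice 3 and 5 stood well above the rest, the other 3 affected mice lay just above the highest unaffected mouse, and the groups did not overlap. This is a log2 fold change of 1.17 with a standard error of 0.28 (edgeR quasi-likelihood, Benjamini-Hochberg adjusted p = 0.0147). Counts behind it were low, between 18 and 216 per mouse. It passed with each mouse left out in turn and in 13 of 14 other settings, with adjusted p-values from 0.000828 to 0.0666 over the latter.

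The other 6 genes of this route did not pass the threshold. *Hmgcs1*, the synthase that joins acetyl-CoA and acetoacetyl-CoA, had 88.8, 41.6, 35.8, 66.3 and 49.1 CPM in affected mice 1, 3, 4, 5 and 6 and between 32.3 and 47.5 CPM (median 38.0) in unaffected mice. Affected mice 1 and 5 were high and the groups overlapped (log2 fold change 0.52, standard error 0.20, adjusted p = 0.104 by edgeR). *Acat2*, which makes acetoacetyl-CoA, spanned 14.8 to 28.8 CPM in affected mice and 13.3 to 17.0 CPM in unaffected mice (log2 fold change 0.37). *Fdps*, which makes farnesyl diphosphate, spanned 4.80 to 9.03 CPM in affected mice and 4.48 to 8.61 CPM in unaffected mice (log2 fold change 0.47). Affected mouse 1 was the highest of all mice for *Hmgcs1* and *Acat2*, and affected mouse 4 was the lowest affected mouse for these 3 genes. Without affected mouse 1 the log2 fold changes of *Hmgcs1* and *Acat2* were 0.29 and 0.20. Without affected mouse 4, *Hmgcs1*, *Acat2* and *Fdps* passed the threshold, with adjusted p-values of 0.0286, 0.0393 and 0.0315 by edgeR, and *Fdps* also passed without unaffected mouse 23 (adjusted p = 0.021). Across the 12 fits that each leave out a mouse, the adjusted p ranged from 0.0286 to 0.251 for *Hmgcs1*, from 0.0393 to 0.277 for *Acat2* and from 0.021 to 0.238 for *Fdps*. The kinases *Mvk* and *Pmvk*, which phosphorylate mevalonate, and the isomerase *Idi1* had log2 fold changes of -0.04, 0.18 and -0.14, and of -0.09, 0.10 and -0.28 without affected mouse 1.

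Among the 11 genes from squalene to cholesterol, 2 were higher and 0 lower (median log2 fold change 0.14), the same counts as at an unadjusted p under 0.05 and by DESeq2. Both act late in the route. *Ebp* (ENSMUSG00000031168, chrX:8185329-8193512, minus strand) encodes the isomerase that moves the double bond of the sterol ring to a neighbouring position. It had 12.6, 16.0, 14.7, 16.1 and 10.4 CPM in affected mice 1, 3, 4, 5 and 6, and between 9.11 and 10.9 CPM (median 10.4) in unaffected mice. Affected mice 3, 4 and 5 and, by less, affected mouse 1 lay above all unaffected mice, while affected mouse 6 lay among them. This is a log2 fold change of 0.46 with a standard error of 0.11 (edgeR quasi-likelihood, Benjamini-Hochberg adjusted p = 0.0158). The gene lies on the X chromosome and the sex of the mice is not given. With the level of *Xist* as a covariate the log2 fold change was 0.43 (adjusted p = 0.0177 by edgeR, in a range from 0.000989 to 0.142 over 14 other settings). As sex is not known, that fit cannot show whether sex was accounted for. *Ebp* did not pass with library totals that leave out *Tg*, nor with limma on unfiltered FPKM values, and passed with each mouse left out in turn.

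*Sc5d* (ENSMUSG00000032018, chr9:42251595-42264256, minus strand) encodes the desaturase that acts after *Ebp*. Its level was 37.1, 33.3, 37.0, 36.7 and 35.1 CPM in affected mice 1, 3, 4, 5 and 6, and between 26.0 and 35.8 CPM (median 29.3) in unaffected mice. Unaffected mouse 23 reached 35.8 CPM and overlapped the affected mice, and the other 6 unaffected mice lay below all affected mice. This is a log2 fold change of 0.26 with a standard error of 0.07 (edgeR quasi-likelihood, Benjamini-Hochberg adjusted p = 0.0343). This call was close to the threshold. It was lost in 10 of 14 other settings, over which the log2 fold change was between 0.125 (library totals that leave out *Tg*) and 0.334. It was also lost in 6 of the 12 fits that each leave out a mouse, where the adjusted p ranged from 0.00758 to 0.0776 (lost without affected mouse 1 or 5, or unaffected mouse 14, 22, 24 or 26), and the log2 fold change in these 12 fits was between 0.245 and 0.302.

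Unaffected mouse 23 stood above the other unaffected mice for several further genes of this route. *Msmo1*, which with *Nsdhl* and *Hsd17b7* removes methyl groups from the sterol ring, had 18.7 CPM in that mouse, 9.93 to 11.3 CPM in the other 6 unaffected mice and 11.4 to 16.2 CPM in affected mice. *Cyp51*, the lanosterol demethylase, had 16.6 CPM in that mouse, 10.2 to 12.3 CPM in the other 6 and 12.2 to 14.7 CPM in affected mice. Mouse 23 was the highest of all 12 mice for 6 of the 30 genes and above the unaffected mean for 27 of them. Without it, *Msmo1* and *Cyp51* passed the threshold, with log2 fold changes of 0.41 (adjusted p = 0.013) and 0.29 (adjusted p = 0.0364) by edgeR, in place of 0.27 (adjusted p = 0.281) and 0.20 (adjusted p = 0.308) with it. No other single mouse moved either gene past the threshold, and across those 12 fits the adjusted p reached 0.451 for *Msmo1* and 0.476 for *Cyp51*.

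The remaining genes of the route overlapped between the groups and did not pass. *Sqle* (squalene epoxidase), *Lss* (lanosterol synthase), *Tm7sf2* (a sterol reductase) and *Nsdhl* had log2 fold changes of 0.14, -0.05, -0.09 and 0.03, and *Hsd17b7* one of -0.22. *Dhcr7*, the reductase of the last step to cholesterol, had 3.78 to 6.84 CPM in affected mice and 4.08 to 9.02 CPM in unaffected mice (log2 fold change -0.34, standard error 0.20), and so leaned the other way from *Ebp* and *Sc5d*. *Fdft1* had 68.4, 32.4, 38.1, 43.9 and 79.1 CPM in affected mice 1, 3, 4, 5 and 6 and between 34.1 and 70.9 CPM (median 40.7) in unaffected mice, with affected mice 1 and 6 and unaffected mouse 22 high. Of its exon bases, 18.3% also lie in exons of *Ctsb* on the opposite strand. Whether strand was used in counting is not given in the sources used here. Whether reads from these shared bases were kept apart between the 2 genes is therefore not known. The same holds for 7 others of the 30 genes with exon bases under an opposite-strand gene, among them *Scap* (13.2%) and *Hmgcs1* (12.1%). *Fdps* (26.7%), *Tm7sf2* (12.1%) and, over small stretches, *Srebf1* (1.17%) and *Scd2* (1.12%) share exon bases with a gene on the same strand.

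Of the 6 regulators and sterol carriers, 1 was higher and 0 lower (median log2 fold change 0.05), also at an unadjusted p under 0.05 and by DESeq2. *Srebf1*, whose product drives fatty acid genes most, had 93.2, 88.8, 113, 107 and 81.3 CPM in affected mice 1, 3, 4, 5 and 6 and between 81.0 and 111 CPM (median 94.8) in unaffected mice. *Srebf2*, whose product drives sterol genes most, had 61.9, 72.3, 65.8, 64.5 and 54.9 CPM in affected mice 1, 3, 4, 5 and 6 and between 52.8 and 71.2 CPM (median 60.8) in unaffected mice. For both, each group spanned nearly the same range and no mouse stood apart. The log2 fold changes were -0.01 (standard error 0.10) for *Srebf1* and 0.07 (standard error 0.09) for *Srebf2*. These are transcript levels, and the cut, active forms of the proteins were not measured.

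*Scap*, the sterol sensor that escorts SREBP to the Golgi, had 42.9, 46.4, 39.4, 43.8 and 38.999 CPM in affected mice 1, 3, 4, 5 and 6, and between 32.2 and 39.2 CPM (median 36.7) in unaffected mice. Affected mice 1, 3 and 5 and, by little, affected mouse 4 lay above all unaffected mice. Affected mouse 6 lay just below unaffected mouse 23, the highest of them. This is a log2 fold change of 0.21 with a standard error of 0.06 (edgeR quasi-likelihood, Benjamini-Hochberg adjusted p = 0.0475), the smallest of the 4 genes past the threshold. It passed in 3 of 14 other settings, over which the adjusted p reached 0.658 and the log2 fold change was between 0.078 (library totals that leave out *Tg*) and 0.226. With single mice left out it passed in 3 of 12 fits (without affected mouse 4 or 6, or unaffected mouse 23), with adjusted p-values there from 0.0209 to 0.117.

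*Insig1*, itself an SREBP target whose product holds SCAP back, had 52.3, 32.0, 45.7, 44.0 and 46.3 CPM in affected mice 1, 3, 4, 5 and 6, and between 23.9 and 57.0 CPM (median 34.0) in unaffected mice. Affected mouse 3 was low and unaffected mouse 23 was the highest of all 12 mice. This is a log2 fold change of 0.33 with a standard error of 0.19 (edgeR quasi-likelihood, Benjamini-Hochberg adjusted p = 0.265), and 0.48 without unaffected mouse 23 (adjusted p = 0.034, in a range up to 0.451 with other mice left out). *Insig2*, the other retention protein, had 29.8, 29.0, 25.2, 28.8 and 32.0 CPM in affected mice 1, 3, 4, 5 and 6 and between 24.3 and 31.5 CPM (median 27.7) in unaffected mice, and the groups covered the same levels (log2 fold change 0.04). *Stard4*, which carries sterol between membranes, spanned 6.22 to 11.3 CPM in affected mice and 7.30 to 9.60 CPM in unaffected mice (log2 fold change -0.10, and -0.28 without affected mouse 1).

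**Figure D2:**
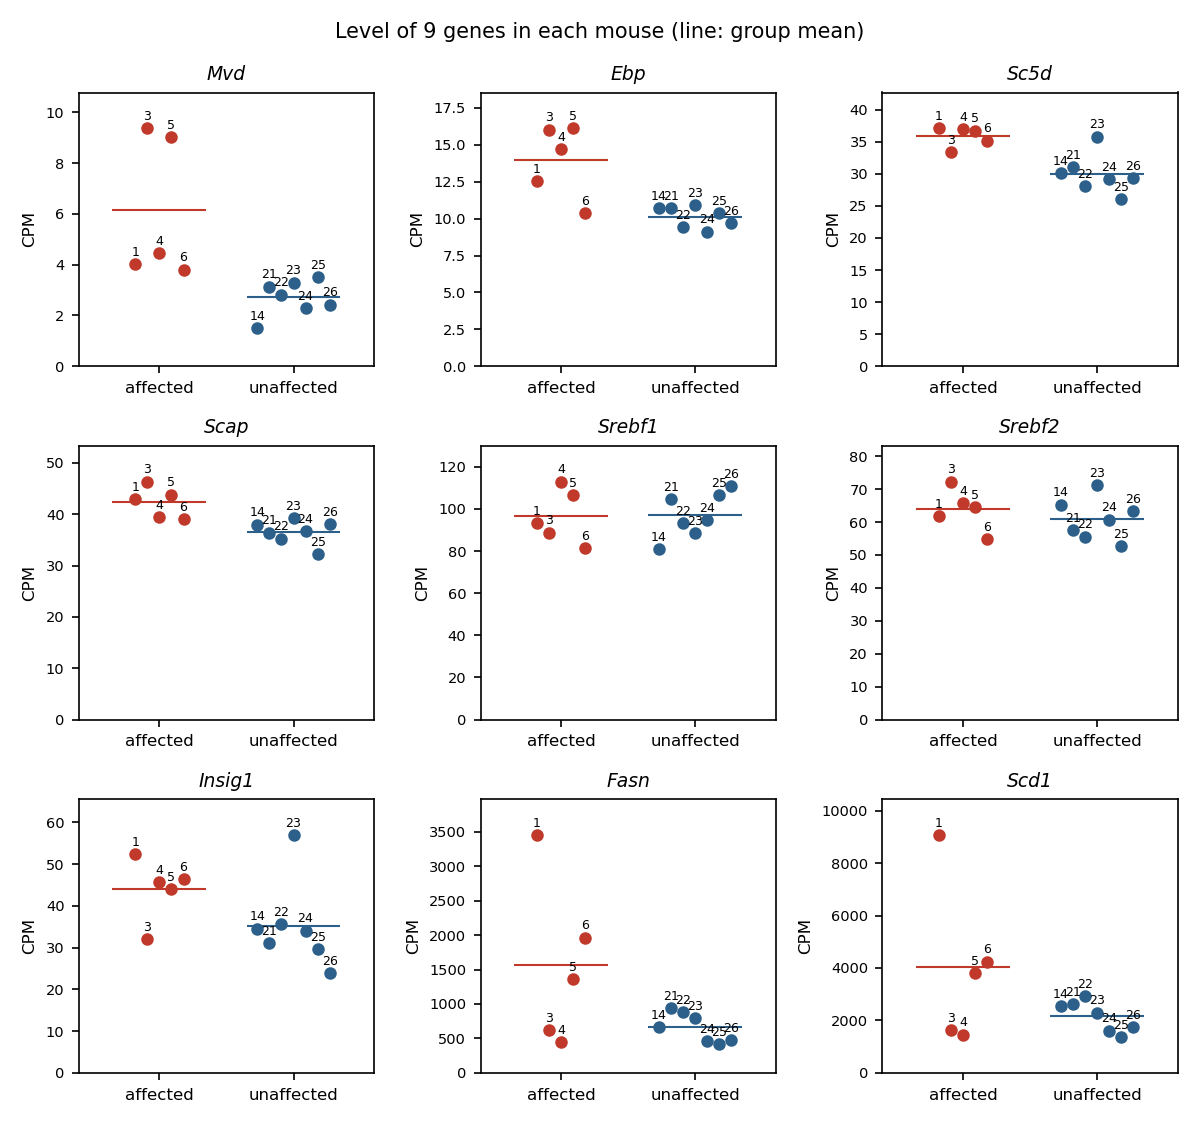
CPM (TMM-scaled) of 9 of the genes in each affected (red) and unaffected (blue) mouse, with replicate numbers beside the points and a line at each group mean. The groups are apart for *Mvd*, while unaffected mouse 23 is high for *Sc5d* and *Insig1*, and *Fasn* and *Scd1* are high in affected mice 1, 5 and 6.

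Of the 6 genes of fatty acid synthesis, 0 passed the threshold in either direction (edgeR), with 2 higher and 0 lower at an unadjusted p under 0.05 and 1 higher (*Fasn*) by DESeq2. All 6 fold changes were positive, with a median of 0.37. *Fasn* (ENSMUSG00000025153, chr11:120805846-120824547, minus strand) had 3453, 617, 444, 1356 and 1960.3 CPM in affected mice 1, 3, 4, 5 and 6, and between 418 and 935 CPM (median 663) in unaffected mice. *Scd1* had 9074, 1631, 1452, 3801 and 4236 CPM in affected mice 1, 3, 4, 5 and 6, and between 1358 and 2914 CPM (median 2294) in unaffected mice. For both genes affected mice 1, 5 and 6 lay above all unaffected mice, and affected mice 3 and 4 lay within their range. By edgeR the log2 fold change of *Fasn* was 1.25 with a standard error of 0.45 and an adjusted p of 0.0862, and that of *Scd1* was 0.91 with a standard error of 0.40 and an adjusted p of 0.159. Without affected mouse 1 they were 0.73 (adjusted p = 0.26) and 0.37 (adjusted p = 0.512). *Fasn* was past the threshold without affected mouse 4 (adjusted p = 0.0257, in a range up to 0.26 with other mice left out) and by DESeq2 (adjusted p = 0.0187).

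*Acaca*, with 709, 221, 223, 368 and 392.3 CPM in affected mice 1, 3, 4, 5 and 6 and between 238 and 346 CPM (median 284) in unaffected mice, and *Elovl6*, which lengthens the chain made by *Fasn*, with 223, 86.6, 66.8, 136 and 117 CPM and between 78.3 and 113 CPM (median 102), were both high in affected mouse 1. Their log2 fold changes were 0.41 and 0.34, and 0.06 and 0.03 without that mouse. *Acly*, which makes acetyl-CoA from citrate, stayed within 116 to 166 CPM in affected and 112 to 151 CPM in unaffected mice (log2 fold change 0.05). *Scd2* had another order of mice, with 336, 468, 624, 521 and 327 CPM in affected mice 1, 3, 4, 5 and 6 and between 309.6 and 439 CPM (median 383) in unaffected mice. Affected mouse 4, the lowest affected mouse for *Scd1*, was the highest of all for *Scd2* (log2 fold change 0.27, and 0.15 without that mouse), and affected mice 1 and 6, high for *Scd1*, were among the lowest. *Scd1* and *Scd2* are similar in sequence, their estimated counts were fractional in all 12 mice, and how shared reads were divided between them is not given in the sources used here.

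The order of mice for *Fasn* and *Scd1* was close to that of the adipose markers. Of the 14 white adipose markers, 13 had a positive fold change (median log2 fold change 0.62) and 0 passed the threshold by edgeR or by DESeq2, with 3 higher and 0 lower at an unadjusted p under 0.05. Of the 10 brown adipose markers all had a positive fold change (median 1.13). By edgeR 2 were higher and 0 lower, and at an unadjusted p under 0.05 there were 5 higher and 0 lower. DESeq2 placed 4 higher (*Ucp1*, *Elovl3*, *Dio2* and *Otop1*), and limma placed 0. Of all genes tested, 7.63% were higher by edgeR, 15.4% at that unadjusted p and 10.4% by DESeq2. *Elovl3*, an elongase of brown fat, rose by 3.79 and *Dio2*, a deiodinase found in brown fat and thyroid, by 3.25 (adjusted p = 0.0176 and 0.0282 by edgeR), each with affected mouse 4 below the unaffected median. Without affected mouse 1 the log2 fold changes were 2.87 and 2.40, and over the other settings they went down to 1.17 (brown adipose markers as a covariate) and 1.55 (limma on log2(FPKM + 1)). *Dio2* did not pass without affected mouse 1 or 5, or without unaffected mouse 14, 21, 22, 24, 25 or 26 (adjusted p up to 0.0748), and over the other settings the adjusted p of both genes reached 0.217 (*Elovl3*) and 0.21 (*Dio2*). *Ucp1*, the uncoupling protein of brown fat, had 693, 51.6, 9.56, 264 and 152 CPM in affected mice 1, 3, 4, 5 and 6 and between 10.4 and 82.9 CPM (median 39.3) in unaffected mice (log2 fold change 2.55, adjusted p = 0.0655 by edgeR and 0.0114 by DESeq2). With single mice left out, the log2 fold change of *Ucp1* was between 1.574 and 2.875 (adjusted p from 0.0181 to 0.214 by edgeR). *Ucp1* passed in 1 of these 12 fits and in 2 of 14 other settings. Over those settings its log2 fold change went down to 0.202 and the adjusted p reached 0.607. In a bulk sample, fewer cells of a type and less RNA per cell cannot be told apart.

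With the mean log2 level of the white adipose markers as a covariate, the log2 fold change of *Fasn* was 0.44 in place of 1.25, that of *Scd1* 0.20 in place of 0.91, that of *Acaca* 0.01 in place of 0.41 and that of *Elovl6* near 0 in place of 0.34. With the brown adipose markers as the covariate they were 0.24, 0.03, -0.08 and -0.14. None of the 4 passed the threshold in either fit. *Scd2* moved the other way, to 0.39 with the white markers, where it passed (adjusted p = 0.0152 by edgeR, in a range up to 0.629 over 14 other settings). The sterol genes *Mvd* and *Ebp* kept log2 fold changes of 1.30 and 0.52 with the white markers and of 1.17 and 0.51 with the brown markers, past the threshold in all 4 cases. Other sterol genes fell. With the white and the brown markers, *Hmgcs1* had 0.30 and 0.17 in place of 0.52, and *Acat2* 0.19 and 0.14 in place of 0.37. *Fdps* had 0.41 and 0.31 in place of 0.47, and *Fdft1* 0.001 and -0.025 in place of 0.27. None of these passed in either fit. *Sc5d* and *Scap* did not pass in either fit, with adjusted p-values of 0.0507 and 0.057 with the white markers and of 0.0796 and 0.106 with the brown markers, though their log2 fold changes moved little, to 0.24 and 0.21 and to 0.24 and 0.20. Over the 30 genes the median log2 fold change was 0.08 with the white and 0.03 with the brown markers, in place of 0.20. In these fits 3 and 2 of the 30 were higher and 0 lower, where 15.0% and 11.1% of all genes passed. These genes and the adipose markers move together across mice, so fat in the sample and a shared change in expression cannot be told apart by such a fit, and how much fat was taken with each thyroid is not given in the sources used here.

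In 2 fits chosen after seeing the data, affected mice 1 and 6 (the highest summed white adipose markers) or affected mice 1 and 5 (the most *Ucp1*) were left out. Mice 1 and 6 also had the most *Fasn* and *Scd1*, and mouse 1 the most of all, so lower fold changes follow from the choice of mice and say nothing further about adipose tissue. Without affected mice 1 and 6 the log2 fold change was 0.29 for *Fasn* and 0.09 for *Scd1*, and 3 of the 30 genes were higher (*Mvd*, *Ebp* and *Scd2*), where 14.3% of all genes passed and 9.42% were higher. Without affected mice 1 and 5 it was 0.62 for *Fasn* and 0.19 for *Scd1*, and *Mvd* alone was higher, where 7.12% of all genes passed and 4.66% were higher.

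**Figure D3:**
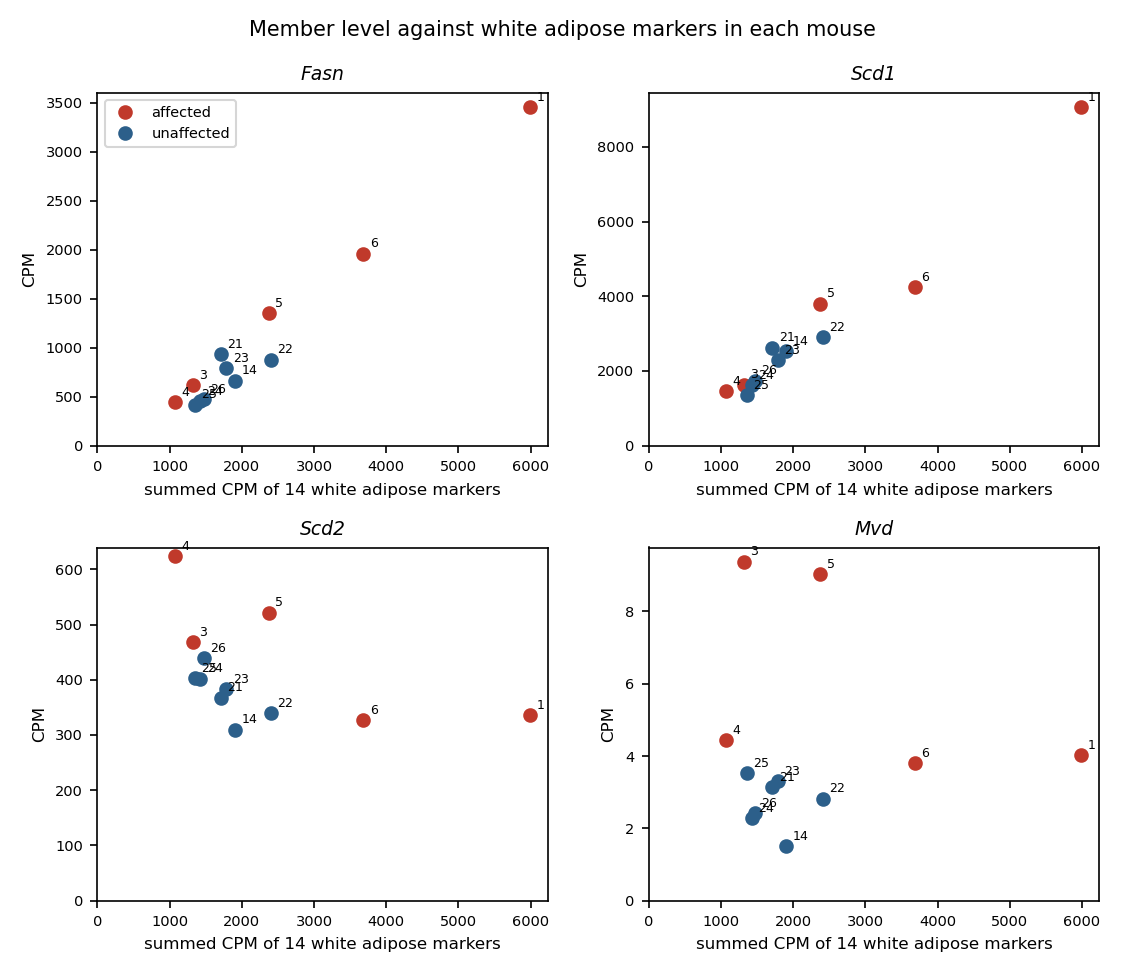
CPM of *Fasn*, *Scd1*, *Scd2* and *Mvd* against the summed CPM of 14 white adipose markers in each affected (red) and unaffected (blue) mouse, with replicate numbers beside the points. *Fasn* and *Scd1* are highest in affected mouse 1, which also has the highest marker sum (5993 CPM), and *Mvd* is highest in affected mice 3 and 5.

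Taking each gene relative to its mean over unaffected mice, the median over the 30 genes was 0.33 log2 units in affected mouse 1, 0.20 in affected mouse 5 and 0.16 in affected mouse 6, but -0.03 in affected mouse 3 and -0.13 in affected mouse 4. Unaffected mice ran from -0.15 (mouse 25) to 0.16 (mouse 23), so the 2 groups overlapped. Affected mouse 1 was the highest of the 12 mice for 11 of the 30 genes. For the 6 fatty acid genes the median was 1.24 in affected mouse 1 and -0.43 in affected mouse 4, and for the 7 mevalonate genes 0.55 and -0.13. The 11 later sterol genes varied less, with 0.11 in affected mouse 1 and 0.03 in affected mouse 4.

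Single genes of other marker lists also passed the threshold, which 13.7% of all genes did, and their part in the values of the 30 genes was not tested. Macrophage markers were positive for 9 of 9 genes and higher for 4 by edgeR, with a median log2 fold change of 0.70. At an unadjusted p under 0.05, 8 were higher, and after adjustment DESeq2 placed 7 higher and limma 3, with 0 lower in each. Their sum was 427, 371, 284, 295 and 264 CPM in affected mice 1, 3, 4, 5 and 6 and 191, 249, 130, 102, 136, 144 and 143 CPM in the unaffected mice, in the order given above, with *Lyz2* most abundant in all mice and no gene at 0. Lysozyme 2 (*Lyz2*) rose by 1.73 and the scavenger receptor *Cd68* by 0.98, the mannose receptor *Mrc1* by 0.74 and the growth factor receptor *Csf1r* by 0.68. Of 6 fibroblast markers 2 were higher (3 at an unadjusted p under 0.05), *Dcn* (0.58) and *Pdgfra* (0.38), and of 5 tested C cell markers 1 was lower (*Ret*, -0.80). The 5 endothelial markers went both ways, with 2 positive fold changes and a median of -0.11. By edgeR 1 was lower (*Kdr*, -0.60) and 0 higher, but at an unadjusted p under 0.05, and by DESeq2 after adjustment, 2 were lower (*Kdr* and *Emcn*) and 1 was higher (*Pecam1*). Of these genes, *Lyz2*, *Cd68* and *Dcn* passed with each mouse left out in turn, *Mrc1* did not pass without affected mouse 1 or 5 (adjusted p up to 0.0526), and *Csf1r*, *Pdgfra*, *Kdr* and *Ret* did not pass in 10, 9, 9 and 9 of the 12 fits that each leave out a mouse (affected mice 1, 5 and 6 among them for all 4), with adjusted p-values up to 0.108, 0.104, 0.0978 and 0.0786. Of 3 tested airway and cartilage markers *Bpifa1* was higher (5.04), led by affected mouse 3, without which the log2 fold change was 2.19 and did not pass (adjusted p = 0.0566). All 3 were higher at an unadjusted p under 0.05, and 0 passed by DESeq2, which gave *Bpifa1* no adjusted p, or by limma. None of the tested markers of skeletal muscle (10), parathyroid (4), T cells (5) or B cells (1) passed in either direction by edgeR, DESeq2 or limma, or at an unadjusted p under 0.05. With the mean of the T cell markers as a covariate, 4 of the 30 genes were higher, as without it, and 14.6% of all genes passed.

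Beside the 30, 120 other genes of lipid metabolism were listed in 9 groups, and 116 were tested. Of these, 8 were higher and 3 lower (9.48%, against 13.7% of all genes tested), with a median log2 fold change of 0.16. At an unadjusted p under 0.05, 28 were higher and 5 lower (28.4%, against 29.0% of all genes), and without affected mouse 4, 20 were higher after adjustment, in the fit where 17.0% of all genes passed. The 8 genes listed with the machinery that moves and cuts SREBP had a median log2 fold change of 0.11, and 0 were lower. *Sec24d*, a coat protein of the vesicles that leave the endoplasmic reticulum, rose by 0.58 (standard error 0.13, adjusted p = 0.0102 by edgeR). The proteases *Mbtps1* and *Mbtps2*, which release SREBP in the Golgi, had log2 fold changes of -0.07 and 0.12 and did not pass. Of 13 genes of sterol uptake and traffic 1 was higher, the lipoprotein receptor *Lrp1* (0.52), and 0 were lower, with 2 higher and 1 lower at an unadjusted p under 0.05 and 2 higher and 0 lower by DESeq2. None of 9 tested genes of the LXR pathway and sterol efflux and none of 8 tested genes of sterol esters, oxysterols and bile acids passed in either direction by edgeR or DESeq2, with 1 and 0 past an unadjusted p under 0.05.

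The isoprenoid branches leave the mevalonate route at the products of *Idi1* and *Fdps*. Of 11 such genes 1 was higher and 1 lower, with 3 higher and 1 lower at an unadjusted p under 0.05 and 2 higher and 1 lower by DESeq2. *Nus1*, a subunit of the enzyme that makes dolichol for protein glycosylation, rose by 0.51 (standard error 0.10, adjusted p = 0.00731 by edgeR), with 53.7, 71.7, 67.1, 77.0 and 49.7 CPM in affected mice 1, 3, 4, 5 and 6 and between 40.4 and 48.1 CPM (median 46.1) in unaffected mice, and the groups did not overlap. *Pggt1b*, a subunit of a protein geranylgeranyl transferase, fell by 0.28 and did not pass without affected mouse 3 or unaffected mouse 24 or 25 (adjusted p up to 0.0576).

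On the fatty acid side, 1 of 15 other genes of synthesis and supply was higher, as by DESeq2, with 4 higher and 0 lower at an unadjusted p under 0.05. *Me1*, the malic enzyme that supplies NADPH to *Fasn*, had 182, 148, 151, 167 and 179 CPM in affected mice 1, 3, 4, 5 and 6 and between 111 and 126 CPM (median 118) in unaffected mice. No affected value fell within the unaffected range. The log2 fold change was 0.48 with a standard error of 0.07 (edgeR adjusted p = 0.000821, at most 0.0127 over 14 other settings). Affected mice 1 and 6, with the highest summed white adipose markers, also had the most *Me1*. The part of adipose tissue in the *Me1* values was not tested. Among 16 genes of elongation and desaturation 2 were higher and 2 lower, with 5 higher and 2 lower at an unadjusted p under 0.05 and 4 higher and 2 lower by DESeq2. *Degs1*, the desaturase of ceramide synthesis, rose by 0.57 and the elongase *Elovl1* by 0.39, which passed in 3 of the 12 fits that each leave out a mouse (without affected mouse 1 or 6, or unaffected mouse 23, and with adjusted p-values up to 0.117). *Elovl2*, an elongase of polyunsaturated fatty acids, had 6.74, 10.5, 12.1, 10.5 and 8.38 CPM in affected mice 1, 3, 4, 5 and 6 and between 18.2 and 25.4 CPM (median 22.4) in unaffected mice, without overlap, and fell by 1.16 on the log2 scale (standard error 0.14, adjusted p = 0.000362 by edgeR). *Hacd3*, a dehydratase of the elongation cycle, fell by 0.57. Of 23 genes of triglyceride and phospholipid synthesis 1 was higher, the phosphatidate phosphatase *Lpin3* (0.68), and 0 were lower, with 5 higher and 1 lower at an unadjusted p under 0.05 and 4 higher and 0 lower by DESeq2. None of 13 genes of fatty acid oxidation passed by edgeR, 12 had a positive fold change (median 0.59), 5 were higher and 0 lower at an unadjusted p under 0.05, and DESeq2 placed 2 higher (*Cpt2* and *Ehhadh*). Their summed level was 3374, 1026, 881, 1657 and 2431 CPM in affected mice 1, 3, 4, 5 and 6, high in the mice with high adipose markers. In unaffected mice it was between 1069 and 1777 CPM, so the groups overlapped, with unaffected mouse 22 (1777 CPM) above affected mouse 5.

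The deposited counts and FPKM values also give the transcript length behind each gene, since FPKM is the count over both the library total and that length, and the length shifts when a gene uses longer or shorter transcripts. This measure was not used to choose the genes and is described without a test. A gene was taken as different where the groups did not overlap and the means differed by at least 5%. Of the 22 of the 30 genes with at least 100 counts in every mouse, 0 were different, against 0.848% of 9084 genes with more than 1 transcript. *Acaca* came closest, at 7191.7 ± 297.0 bp (SD, n = 5) when affected against 6807.4 ± 210.2 bp (SD, n = 7) when unaffected, 5.65% longer, and the groups overlapped through affected mouse 3, without which it would count as different. *Sc5d* had 2736.2 ± 141.7 bp (SD, n = 5) against 2896.5 ± 100.5 bp (SD, n = 7), with overlap. *Scd1* had nearly the same length in all mice, from 4820.4 to 4830.6 bp.

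Promoter sequences, from 250 bases before to 50 bases after each transcription start, were taken from RefSeq (GRCm38.p6) and were present for 24 of the 30 genes, in 32 promoters. Promoters of *Fdps*, *Fdft1*, *Sqle*, *Stard4*, *Scd1* and *Scd2* were not analysed here. They were searched on both strands for 4 motifs that SREBP targets are known for. CCAAT, the box bound by NF-Y, was in 65.6% of the 32 promoters and 37.4% of all 32851 promoters in the table. GGGCGG, a GC box, was in 75.0% and 35.7%, and CACGTG, an E-box, in 18.8% and 7.15%. Promoters of a gene can overlap, as those of *Scap* do, whose shared E-box and GC box count in each. By gene the shares were 83.3% and 38.2% for the GC box and 20.8% and 8.09% for the E-box. TCACNCCAC, a form of the sterol regulatory element, was in 1 of the 32 (3.12%), that of *Hmgcs1*, and in 1.24% of all. CCAAT was found for *Mvd*, *Ebp*, *Sc5d* and *Fasn* and not for *Scap*. Of the 24 genes, 20 (83.3%) hold it in at least 1 promoter, against 41.1% of all 27025 genes with a promoter. A match is a description of the sequence and not of binding.

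The stretches around the sterol motif of *Hmgcs1* and around the CCAAT nearest the start of the called sterol enzymes and of *Fasn* are shown to let their surroundings be compared. Each is read 5′ to 3′ on the strand of its gene, with the motif in capitals (ATTGG is CCAAT on the other strand, and in *Fasn* the matches on the 2 strands overlap). They lie at chr13:119690204-119690233, plus strand (*Hmgcs1*), chr8:122443432-122443461, minus strand (*Mvd*), chrX:8193550-8193579, minus strand (*Ebp*), chr9:42264307-42264336, minus strand (*Sc5d*) and chr11:120824589-120824618, minus strand (*Fasn*) of GRCm38.p6, upstream of the start.
Hmgcs1: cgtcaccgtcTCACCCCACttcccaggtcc
Mvd: ccggccagcgggCCAATcatatggcagcgc
Ebp: atccctgtactgATTGGttcgtcagattcg
Sc5d: cgccggctgctgATTGGccggctgcctgca
Fasn: cctcggtgtCCAATTGGtttcgatgtggag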

How the data were processed

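RNA from 12 thyroids was depleted of ribosomal RNA and sequenced, with 1 library per mouse, so that p-values measure spread between mice. The methods say that the authors aligned reads with the OmicSoft Aligner (OSA4) to a reference named Mouse.B39 with Ensembl release 96, and quantified genes in Array Studio. They deposited estimated counts and FPKM values. Use of strand in counting is not given in the sources used here. The 30 genes and all lists were chosen with earlier results of these data known, and no p-value was computed over a list.

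Rounded estimated counts were filtered with filterByExpr (minimum count 10), scaled by TMM and fitted without covariates in edgeR 4.0.16 (quasi-likelihood, robust) under R 4.3.3. The Benjamini-Hochberg adjustment covered all 19661 genes tested, with a threshold of 0.05. A standard error is the log2 fold change over the square root of F. The procedure was tried on simulated counts, whose outcome is not reported here and on which no result rests. Total counts ranged from 11434901 to 23319948, and depth limits genes of few counts most.

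All 30 genes are named. Values of each affected mouse, with the range and median of unaffected mice, are given for those past the threshold. The same is given for *Srebf1*, *Srebf2*, *Scap*, *Insig1*, *Insig2*, *Scd1* and *Scd2*, and for others chosen after their values were seen. From each list of other lipid genes or markers, up to 4 genes past the threshold with the largest change are named, though not every such gene is reported. *Mbtps1*, *Mbtps2*, *Cpt2*, *Ehhadh* and *Ucp1* were added later. *Otop1*, *Emcn* and *Pecam1* are named as genes called by DESeq2, and the most abundant genes of some lists are also named. The 9 lipid lists cover SREBP proteases and related genes, the LXR pathway and sterol efflux, sterol esters with oxysterols and bile acid enzymes, sterol uptake and traffic, isoprenoid branches, other fatty acid synthesis and supply, elongation and desaturation, triglyceride and phospholipid synthesis, and fatty acid oxidation. Marker lists cover thyroid follicular cells, white and brown adipose tissue, skeletal muscle, parathyroid, C cells, macrophages, T cells, B cells, endothelium, fibroblasts, and airway epithelium with cartilage. *Chga* is in 2 lists (parathyroid and C cells), as is *Cpt1b* (brown adipose and fatty acid oxidation). Sums use every gene of a list.

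Other settings were DESeq2 1.42.0, totals with no TMM factors, totals that leave out *Tg*, upper-quartile factors, a fit with no filter, a filter of 10 counts per mouse, controls from B6NCrl alone, limma 3.58.1 on FPKM (pseudocount 1 or 0.1 with mean FPKM from 0.5 up, or pseudocount 1 unfiltered), and covariates for white adipose, brown adipose or T cell markers or *Xist*. Each mouse was also left out, and a minimum of 20 counts was tried for the implied length. A pseudocount shrinks changes of low genes. Exon overlaps are from GENCODE release M21 and promoters from RefSeq.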

Additional observations from a re-analysis of the deposited data

Results flagged for a closer look

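For each of the 30 genes, the highest and the lowest mouse of a group was compared with the nearest other mouse of that group by Dixon's criterion. Of 60 groups of values, 6 held a mouse that stood apart, and chance gives about 1 in 20 groups. Unaffected mouse 23 was such a mouse for 4 genes. *Fdps* had 8.61 CPM there and at most 5.50 CPM in the other unaffected mice, *Cyp51* 16.6 against 12.3 CPM, *Msmo1* 18.7 against 11.3 CPM and *Insig1* 57.0 against 35.6 CPM. Unaffected mouse 22 had 70.9 CPM of *Fdft1*, with the next unaffected mouse at 43.7 CPM. Affected mouse 1 had 11.3 CPM of *Stard4*, with the next affected mouse at 7.55 CPM.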

How the results depend on the processing

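Across 14 other settings the number of the 30 genes called higher was between 0 and 5, and with single mice left out (leave-one-out) between 2 and 8, and none was called lower. It was 2 with library totals, upper-quartile factors, no filter, B6NCrl controls alone, limma on FPKM with either pseudocount, or the brown adipose covariate, 1 with totals that leave out *Tg* and without affected mice 1 and 5 together (added after seeing the data), and 0 with unfiltered FPKM. All genes called numbered 2699, and 1339 with unfiltered FPKM (719 higher, 620 lower) and 1440 without affected mice 1 and 5 (943 higher, 497 lower). Higher calls numbered 604 in totals that leave out *Tg*, and 979 and 983 with limma on FPKM (pseudocounts 1 and 0.1). Lower calls numbered 792 with the brown adipose covariate. Leave-one-out ranges were 1774 to 3390 for all calls, 1002 to 1872 for higher and 746 to 1518 for lower. Other lipid genes called higher numbered 8, with 17 by DESeq2, 3 in totals that leave out *Tg*, 15 with the white adipose covariate, 19 without affected mice 1 and 6 (added after seeing the data), and 7 to 20 leave-one-out, and those called lower 2 to 4 throughout. The median log2 fold change of the 30 genes was 0.203, with 0.029 under the brown adipose covariate and 0.123 to 0.251 leave-one-out. Another implied length was found for 0 to 1 of them leave-one-out. The cause of these differences was not tested, beyond what fewer samples or more genes tested bring about.

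Signs changed for 10 of the 30 genes, none of them past the threshold either way. The log2 fold changes were then, in totals that leave out *Tg*, -0.109 (*Nsdhl*), -0.097 (*Insig2*), -0.06 (*Srebf2*) and -0.094 (*Acly*). With upper-quartile factors they were -0.021 (*Nsdhl*) and -0.007 (*Insig2*), with at least 10 counts per mouse 0.007 (*Srebf1*), and with B6NCrl controls alone 0.019 (*Mvk*). All 3 limma fits gave -0.011 for *Insig2*. With the white adipose covariate they were 0.042 (*Srebf1*), -0.053 (*Acly*) and -0.002 (*Elovl6*), and with the brown one -0.025 (*Fdft1*), -0.001 (*Nsdhl*), -0.03 (*Insig2*), 0.034 (*Srebf1*), -0.077 (*Acly*), -0.079 (*Acaca*) and -0.141 (*Elovl6*). Without affected mice 1 and 5 they were -0.024 (*Nsdhl*), -0.04 (*Acly*), -0.046 (*Acaca*) and -0.143 (*Elovl6*), and without affected mice 1 and 6 -0.033 (*Pmvk*), -0.185 (*Fdft1*), -0.025 (*Insig2*), 0.084 (*Srebf1*), -0.114 (*Acly*), -0.091 (*Acaca*) and -0.046 (*Elovl6*). Leave-one-out values ranged from -0.092 to 0.019 for *Mvk*, from -0.003 to 0.062 for *Nsdhl*, from -0.051 to 0.058 for *Srebf1* and from -0.033 to 0.125 for *Acly*. Of the 11 other lipid genes and 14 markers followed, none changed sign. The cause was not tested. Low depth limits *Mvd* most, with 18 counts in unaffected mouse 14. No paired analysis was possible because the groups hold different mice and the labels give no pairs between them.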
